A study of Mus musculus with 16 samples.

Results

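The genes described here are those of fatty acid oxidation: 31 listed genes of fatty acid activation, import into mitochondria, beta-oxidation, electron transfer and its regulators. Their symbols were matched to the identifiers of the count table, and all 31 were found among its 55573 gene identifiers. Of the 31, 27 had enough reads to be tested, among 13711 genes tested. RNA was sequenced from CD8 T cells carrying the OT1 receptor for ovalbumin, on the C57BL/6 background, that had been transferred into tumour-bearing mice and sorted out of the tumours on day 5. The recipients had received Foxp3UP cells together with Mock cells, which the sort separated by congenic markers. The 16 libraries form 4 groups of 4. In the UP arm Foxp3UP is set against MockUP, and in the DN arm Foxp3DN against MockDN. All 4 groups share the receptor, the strain, the transfer and the time. What UP and DN stand for, how Foxp3 was introduced, the tumour line and the age of the mice are not stated in the labels. The labels do not say which libraries came from separate mice, so p-values measure only the spread between these samples, which may be technical.

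Beta-oxidation shortens fatty acids in the mitochondrial matrix. Acyl-CoA synthetases activate the acid, a carnitine shuttle carries it across the inner membrane, and a repeating cycle of dehydrogenation, hydration, a further dehydrogenation and thiolysis releases acetyl-CoA, with electrons passed to the respiratory chain through the flavoproteins ETF and ETF dehydrogenase. In T cells the pathway has been described as a fuel source of memory and regulatory cells, while activated effector cells rely more on glycolysis. Its genes are targets of the nuclear receptors PPAR and ERR with their coactivators of the PGC-1 family.

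Each step of the pathway was represented in these cells by at least 1 well-expressed gene, with the exception of the regulators. Levels between genes are compared as reads scaled by gene length and library size (RPKM), averaged over all 16 libraries. The highest was Acadl, long-chain acyl-CoA dehydrogenase, at 97.9 RPKM, which lay at the 96.0th percentile of the tested genes. Next came the very-long-chain enzyme Acadvl at 76.8, the thiolase Acaa2 at 65.0 and the ETF alpha subunit Etfa at 60.4 RPKM. Of the synthetases that activate fatty acids, Acsl5 led with 53.4 RPKM, followed by Acsl4 with 15.8. Acsl1, with 1.15, and Acsl3, with 0.234 RPKM, were far lower. In the carnitine shuttle the carrier Slc25a20 stood at 19.4, the outer-membrane enzyme Cpt1a at 10.6 and the inner-membrane enzyme Cpt2 at 3.53 RPKM. The order of levels within the steps was much the same in all 4 groups, as the plot of levels by step shows.

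**Figure D1:**
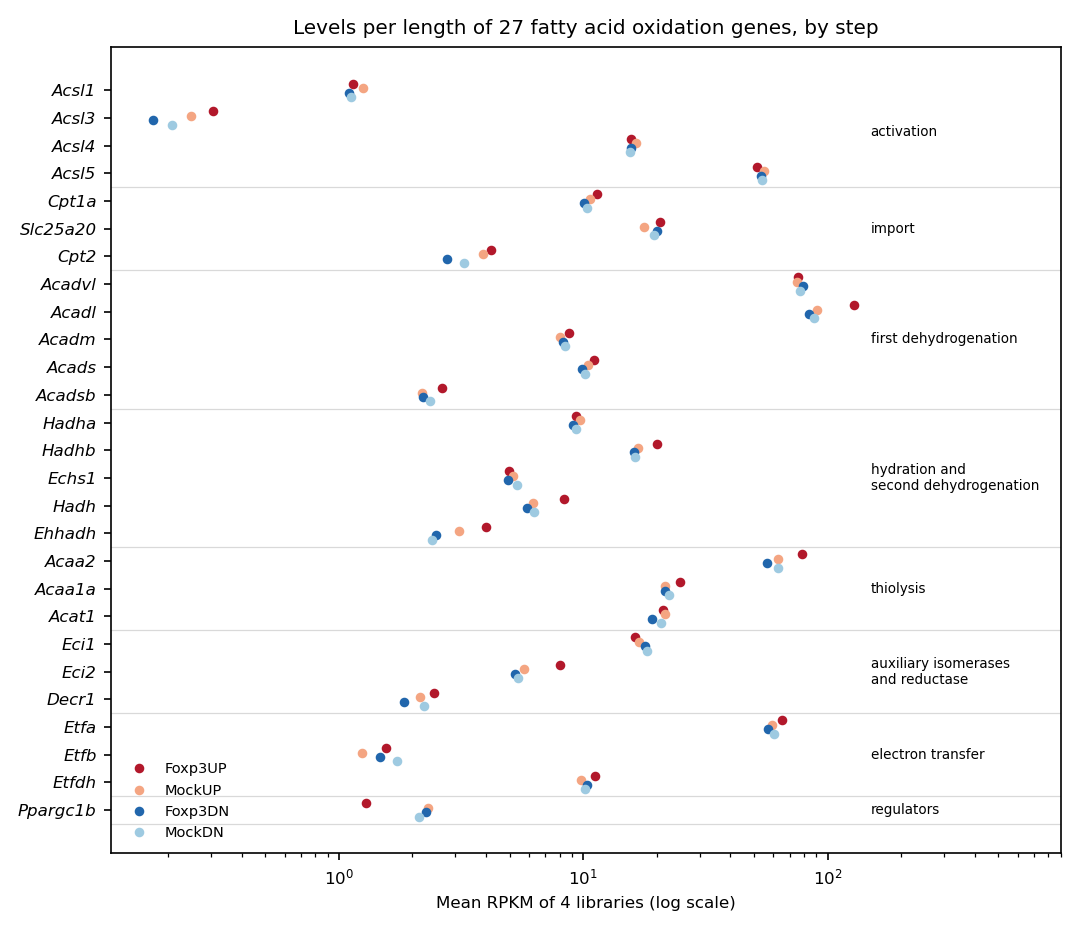
Mean RPKM of 4 libraries (log axis) for the 27 tested genes, grouped by step, with 1 point for each group. The points of a gene lie close together next to the distances between genes, and the widest gaps between Foxp3UP and MockUP are those of Acadl (129 ± 26.3 and 90.8 ± 17.5 RPKM, SD, n = 4 each) and Ppargc1b (1.29 ± 0.218 and 2.32 ± 1.08).

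The 4 genes that did not reach the filter were Cpt1b, Cpt1c, Ppara and Ppargc1a. Cpt1b, the muscle form of the outer-membrane carnitine palmitoyltransferase, had 0 counts in every library. In the annotation it shares 81.4% of its exonic bases with Gm44502 on the same strand, which was also at 0, so a count of 0 here does not show that the transcript is absent. Cpt1c, the brain form, had 0 to 5 counts per library, and Ppara, the nuclear receptor that drives oxidation genes in liver, had 0 to 3. Ppargc1a, the coactivator PGC-1 alpha, had 0 to 9. No comparison was made for these 4. A pair of tested genes was also poorly measured. Etfb, the ETF beta subunit, had 10 to 28 counts per library, and 58.2% of its exonic bases are shared with other annotated genes on its strand. Acsl3 had 2 to 22 counts.

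Promoters are shown for 4 members that represent the pattern described further on: Acadl and Eci2, the members with the largest positive differences between Foxp3UP and MockUP, Hadhb, which shares its upstream region with Hadha, and Cpt1a, the import enzyme whose difference was small. Each runs from 250 bases before to 50 after the RefSeq start (GRCm38.p6), 5′ to 3′ on the gene's strand, and RefSeq starts can differ from the ends of the deposited gene spans. The windows are chr1:66863260-66863559 (minus strand) for Acadl, chr13:34994095-34994394 (minus strand) for Eci2, chr5:30155003-30155302 (plus strand) for Hadhb and chr19:3323051-3323350 (plus strand) for Cpt1a.

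Acadl: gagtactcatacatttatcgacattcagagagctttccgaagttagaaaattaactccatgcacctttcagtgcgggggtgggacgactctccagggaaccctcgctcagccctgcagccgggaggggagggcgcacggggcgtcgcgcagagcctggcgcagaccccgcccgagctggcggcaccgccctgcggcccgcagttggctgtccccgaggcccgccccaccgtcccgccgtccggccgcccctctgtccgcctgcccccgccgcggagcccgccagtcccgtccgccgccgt
Eci2: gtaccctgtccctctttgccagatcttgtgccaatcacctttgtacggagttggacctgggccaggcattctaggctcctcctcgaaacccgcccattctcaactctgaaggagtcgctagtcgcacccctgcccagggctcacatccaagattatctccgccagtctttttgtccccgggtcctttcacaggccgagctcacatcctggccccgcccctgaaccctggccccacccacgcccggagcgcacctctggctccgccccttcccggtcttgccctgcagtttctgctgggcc
Hadhb: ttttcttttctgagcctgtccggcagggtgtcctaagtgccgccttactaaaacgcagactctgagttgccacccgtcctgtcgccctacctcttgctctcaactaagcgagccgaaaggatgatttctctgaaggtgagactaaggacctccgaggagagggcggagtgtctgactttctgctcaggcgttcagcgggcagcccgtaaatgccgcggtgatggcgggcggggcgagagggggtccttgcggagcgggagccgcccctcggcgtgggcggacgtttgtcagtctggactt
Cpt1a: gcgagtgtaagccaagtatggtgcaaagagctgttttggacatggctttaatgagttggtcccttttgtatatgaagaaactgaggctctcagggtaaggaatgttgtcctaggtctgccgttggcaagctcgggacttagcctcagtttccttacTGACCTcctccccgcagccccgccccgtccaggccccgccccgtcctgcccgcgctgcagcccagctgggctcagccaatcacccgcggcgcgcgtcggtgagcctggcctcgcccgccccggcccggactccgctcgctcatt
The capitals mark the only match, at base 157 of the Cpt1a window, to the nuclear receptor half-site AGGTCA, which reads TGACCT on the opposite strand. Both strands were searched. The half-site lies in 16.3% of all 32851 RefSeq promoters of this length, and in those of 5 members: Acadm, Acadvl, Cpt1a, Cpt1c and Echs1. The PPAR-type direct repeat AGGTCANAGGTCA, which contains the half-site, lies in 0.0396% of promoters, and the extended ERR half-site TCAAGGTCA, which also contains it, in 0.423%. Neither was in a promoter of the 26 members that have one in the table.

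Library totals ran from 9389477 to 13226590 counts. Foxp3, the check of the labels, was at 15.2, 21.0, 29.5 and 28.7 CPM, counts scaled by library size, in the Foxp3UP libraries and 11.5, 13.0, 13.7 and 11.5 in MockUP (0.92 ± 0.17 SE on the log2 scale, edgeR adjusted p = 0.00233). In the DN arm Foxp3 was at 10.3, 10.1, 10.4 and 10.2 CPM in Foxp3DN and 12.6, 13.4, 11.0 and 14.6 in MockDN. All 4 Foxp3DN libraries lay below all 4 MockDN libraries, so the libraries labelled Foxp3DN showed no higher Foxp3 level than their control, and the difference did not pass the test (-0.33 ± 0.17, adjusted p = 1.00). MockUP 2 stood apart. Its deviations from the mean of all libraries correlated with gene length across genes (Spearman 0.45, against -0.25 to 0.12 in the other 15 libraries), and the members whose value turned sign or moved by over 1.5 times without it are given beside their results or together further on. All 8 CD8 T cell markers were detected, summing to 4568 to 8117 CPM per library, and Cd4 stayed below 1 CPM. Cd40lg, the other CD4 T cell marker listed, was at 4.01 to 8.19 CPM in Foxp3UP, 10.9 to 20.8 in MockUP, 17.5 to 23.6 in Foxp3DN and 18.4 to 21.2 in MockDN, lower in every Foxp3UP library than in any other. Markers of other cells were present, some at sums that reached those of well-expressed members, and in part moved with the groups. The 5 melanocyte genes summed to 51.6 to 110.0 CPM in Foxp3UP, 48.1 to 73.5 in MockUP, 27.7 to 60.8 in Foxp3DN and 18.4 to 56.1 in MockDN. The 10 macrophage genes summed to 55.6 to 79.2, 44.8 to 61.5, 41.7 to 64.1 and 41.5 to 53.2 CPM in the same order. They did not move as 1. Cd68 was at 20.3 to 29.2 CPM in Foxp3UP against 9.87 to 16.6 in MockUP. Apoe was lower in Foxp3UP, at 5.57 to 7.05 against 7.55 to 10.2. Csf1r also tended lower there, at 5.40 to 6.72 against 6.36 to 8.83, with overlap. The 6 dendritic cell genes summed to 78.5 to 95.6 CPM in Foxp3UP against 89.4 to 105.4 in MockUP. Of these, H2-Ab1 was higher in Foxp3UP, at 43.6 to 64.9 CPM against 19.9 to 42.2. Itgax was lower, at 11.4 to 23.6 against 31.5 to 66.7. The 5 B cell genes were higher in Foxp3UP, at 281 to 358 CPM against 129 to 206 in MockUP, almost all of it from Ighm, with Ms4a1 at 0 counts over all libraries. The part of these cells in the results was not tested. In sorted bulk RNA, fewer cells of a kind and less RNA per cell cannot be told apart.

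Foxp3UP was set against MockUP to see which genes differ in the cells with raised Foxp3. Among the oxidation genes the differences were small and mostly upward. Of 27 genes tested 19 had a positive log2 fold change and the median was 0.13, against 0.00 over all genes tested. Without Foxp3UP 1, 18 were positive with a median of 0.06, and without MockUP 1, 21 with a median of 0.23. Without regard to the replicate numbers, edgeR called 0 genes higher (6.08% of all genes were) and 1 lower (5.99% of all genes), Ppargc1b, at an adjusted p under 0.05. Before adjustment 10 of the 27 had p under 0.05, where 26.7% of all genes did, and DESeq2 called 3, where it called 14.9% of all genes. Same-numbered Foxp3UP and MockUP libraries deviated together from their group means, with a correlation of 0.630 for number 1. The highest correlation of Foxp3UP 1 with another MockUP number was 0.0444. For numbers 2, 3 and 4 the margin was narrow, at 0.213, 0.297 and 0.398 against 0.173, 0.220 and 0.364 with another number. With the replicate number as a block, 9 of the 27 were called higher, where 13.3% of all genes were, and Ppargc1b was called lower, where 12.0% were. The 9 included Slc25a20 of import, Acadl of the first dehydrogenation, Acaa2 and Acaa1a of thiolysis, the isomerase Eci2 and Etfdh of electron transfer. The rest were Hadh and Ehhadh of the middle steps and Hadhb, which is listed there although its product carries a thiolase. The count of 10 fell to 6 when replicate 1 or replicate 3 of either group was left out. Acadl, Hadhb, Acaa2, Eci2 and Ppargc1b were called in each of the 8 fits that left out 1 library of the UP arm. Of the others, Slc25a20 kept its call in 6 of these 8 fits, Hadh in 4, Ehhadh and Etfdh in 2 each and Acaa1a in 1. With the block, a library whose pair is left out adds almost nothing to the difference. The 8 fits are thus close to 4 separate ones, 1 for each pair. Ehhadh, Etfdh and Acaa1a also lost their calls with RLE size factors or library totals in place of TMM. Within pairs, 10 of 27 genes were higher in 4 of 4 pairs (21.5% of all genes were), the same 9 and Acadsb, and 1 was lower in 4 of 4 (17.7% of all genes), Ppargc1b. The ranges of the groups did not overlap for 2 of 27 genes, Acaa1a and Etfdh, which is 7.41% against 15.9% of all genes.

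**Figure D2:**
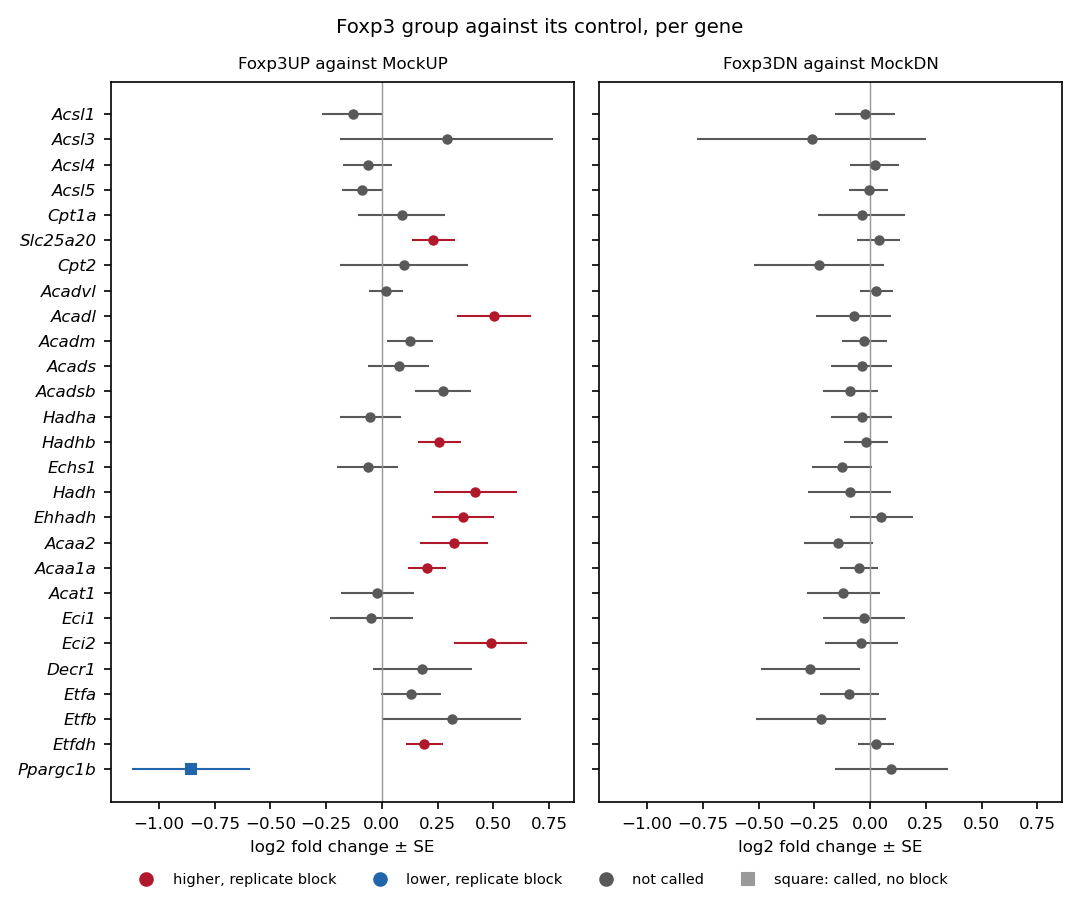
Log2 fold change ± SE from the fit without the block for the 27 tested genes in step order, Foxp3UP against MockUP on the left and Foxp3DN against MockDN on the right. Colour gives the call with the replicate block and a square the call without it. On the left 9 genes are red and Ppargc1b is blue, and on the right all lie between -0.27 and 0.10.

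The activation genes did not differ detectably. Acsl5 (ENSMUSG00000024981, chr19:55251938-55297720, plus strand), the synthetase with the highest level, was at 288, 245, 230.2 and 239 CPM in Foxp3UP against 277, 246, 273 and 269 in MockUP. The DN arm had 236, 262, 279 and 263 (Foxp3DN) and 237, 270.0, 271 and 267 (MockDN). The groups overlapped, with the highest library and the 3 lowest of the UP arm all in Foxp3UP, and the log2 fold change was -0.09 ± 0.09 (edgeR adjusted p = 0.573). Acsl4, which prefers arachidonic acid, was at -0.06 ± 0.11 and Acsl1 at -0.13 ± 0.14. MockUP 2 had the highest Acsl4 level of all libraries, 110.0 CPM, and without it the value was 0.05. Acsl3, with few reads, had a positive value with a wide error, 0.29 ± 0.48 (edgeR adjusted p = 0.754), which ran from -0.05 to 0.64 when 1 library was left out. The summed activation genes were at 348 ± 27.4 CPM in Foxp3UP against 369 ± 6.66 in MockUP (SD, n = 4 each).

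In the import step the carrier was called higher with the block. The rate-limiting enzyme was not called with all libraries, and the difference between the 2 genes was not tested. Slc25a20, the carnitine-acylcarnitine carrier of the inner membrane (ENSMUSG00000032602, chr9:108662088-108684641, plus strand), was at 92.1, 95.7, 109 and 105 CPM in Foxp3UP against 75.4, 74.4, 95.8 and 96.3 in MockUP. Values in the DN arm were 94.7, 95.9, 101 and 95.7 with Foxp3DN and 89.8, 90.6, 101 and 94.8 with MockDN. MockUP 1 and 2 were the lowest of all 16 libraries, and each Foxp3UP library lay above the MockUP library of its number. The log2 fold change was 0.23 ± 0.10 (edgeR adjusted p = 0.134) and 0.24 ± 0.06 with the block (adjusted p = 0.0139). That call ended without Foxp3UP 1 (0.22, adjusted p = 0.0700) or MockUP 1 (0.22, adjusted p = 0.0718). Cpt1a, which forms acylcarnitine at the outer membrane and limits the rate of entry (ENSMUSG00000024900, chr19:3322334-3385733, plus strand), was at 89.8, 94.0, 84.9 and 78.2 CPM in Foxp3UP against 86.9, 120.0, 59.5 and 59.6 in MockUP. Foxp3DN read 92.3, 85.0, 62.1 and 68.9 and MockDN 85.6, 96.1, 70.6 and 64.1. MockUP 2 was the highest library and MockUP 3 and 4 the lowest, so that the Foxp3UP libraries lay inside the range of their control. The log2 fold change was 0.09 ± 0.20 (edgeR adjusted p = 0.822), and 0.14 ± 0.12 with the block (adjusted p = 0.424). The value depended on the replicates used. It was -0.17 in replicates 1 and 2 alone (edgeR adjusted p = 0.583) and 0.43 in replicates 3 and 4 alone (adjusted p = 0.00264), and 0.33 without MockUP 2 (adjusted p = 0.234). With the block Cpt1a was called higher when Foxp3UP 2 (0.31, edgeR adjusted p = 0.00631) or MockUP 2 (0.30, adjusted p = 0.00801) was left out, and in none of the other 6 such fits. Cpt2, which returns the acyl group to CoA in the matrix, was at 9.99 ± 2.27 CPM in Foxp3UP against 9.33 ± 3.09 in MockUP (0.10 ± 0.29, edgeR adjusted p = 0.871).

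The first dehydrogenation held the member with the largest positive difference. Acadl (ENSMUSG00000026003, chr1:66830839-66863277, minus strand) was at 327, 267, 231 and 206 CPM in Foxp3UP against 234, 158, 170.2 and 166 in MockUP. The DN arm had 173, 196, 137 and 166 (Foxp3DN) and 188, 216, 135 and 169 (MockDN). MockUP 1 was well above the other MockUP libraries and overlapped Foxp3UP, while all other MockUP libraries lay below all of Foxp3UP. Acadl was 1.42-fold higher in Foxp3UP, a log2 fold change of 0.50 ± 0.17 (edgeR adjusted p = 0.0598), and 0.50 ± 0.07 with the block (adjusted p = 0.00034). The pair differences were 0.48, 0.76, 0.44 and 0.31 on the log2 scale, so all 4 were positive. Without MockUP 1 the fit without a block gave 0.65 (edgeR adjusted p = 0.0176), and DESeq2 on all libraries 0.49 (adjusted p = 0.0445). The other acyl-CoA dehydrogenases differed less. Acadvl, which acts on the longest chains, was at 0.02 ± 0.07, with 42.9% of its exonic bases shared with Dvl2 on the opposite strand, so its counts are uncertain if strand was not used. Acadm, the medium-chain enzyme, was at 0.13 ± 0.10 and Acads, the short-chain enzyme, at 0.08 ± 0.14. Acadsb, which acts on short branched acyl-CoA from isoleucine, was at 0.27 ± 0.13 (edgeR adjusted p = 0.169) and 0.27 ± 0.11 with the block (adjusted p = 0.0782). The sum over the 5 dehydrogenases was 612, 551, 514 and 485 CPM in Foxp3UP against 498, 423, 450.3 and 446 in MockUP. Only MockUP 1 overlapped the Foxp3UP range, and Acadl made up most of the difference between the means.

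Of the genes listed under the middle steps, Hadhb was called higher with the block. It kept this call in each fit that left out a library of the UP arm. Hadhb, the beta subunit of the mitochondrial trifunctional protein, which carries its thiolase (ENSMUSG00000059447, chr5:30155248-30184593, plus strand), was at 148, 129.8, 128 and 121 CPM in Foxp3UP against 133, 99.3, 102 and 106 in MockUP. Values in the DN arm were 113, 107, 103 and 104 with Foxp3DN and 111, 112, 96.9 and 111 with MockDN. Each Foxp3UP library exceeded its pair, and MockUP 1 overlapped the Foxp3UP range. The log2 fold change was 0.26 ± 0.10 (edgeR adjusted p = 0.0987) and 0.26 ± 0.06 with the block (adjusted p = 0.00944). Hadha, the alpha subunit with the hydratase and dehydrogenase, is transcribed away from Hadhb from a start 85 bases away. It was at -0.05 ± 0.14 (edgeR adjusted p = 0.857) and -0.04 ± 0.08 with the block (adjusted p = 0.766). The log2 ratio of Hadhb to Hadha CPM was 0.66, 0.61, 0.67 and 0.82 in Foxp3UP and 0.49, -0.08, 0.58 and 0.57 in MockUP. All 4 Foxp3UP libraries lay above all 4 MockUP libraries, with MockUP 2 far below the rest. The mean ratio was 0.69 ± 0.09 in Foxp3UP against 0.39 ± 0.32 in MockUP (SD, n = 4 each), and 0.55 ± 0.05 in MockUP without MockUP 2 (n = 3). In Foxp3DN and MockDN it was 0.43 ± 0.13 and 0.41 ± 0.12. The ratio was chosen after the values were seen and is given as a description with no test.

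Hadh, the short-chain 3-hydroxyacyl-CoA dehydrogenase, was at 41.4 ± 8.99 CPM in Foxp3UP against 30.9 ± 5.95 in MockUP (0.42 ± 0.19, edgeR adjusted p = 0.157), and with the block at 0.42 ± 0.12 (adjusted p = 0.0207). Its pair differences were 0.45, 0.65, 0.49 and 0.04, all positive, with that of pair 4 near 0. Ehhadh, the bifunctional enzyme of peroxisomes, was at 11.9 ± 1.06 CPM against 9.24 ± 1.49 (0.36 ± 0.14, edgeR adjusted p = 0.100), and 0.37 ± 0.12 with the block (adjusted p = 0.0468), a call kept only without Foxp3UP 2 or MockUP 2 among the fits that left out a library. Echs1, the short-chain hydratase, was at -0.06 ± 0.14 (edgeR adjusted p = 0.813). Its pair differences were 0.16, 0.36, -0.31 and -0.36: the first pairs lay above 0 and the last below.

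Both 3-ketoacyl-CoA thiolases listed under thiolysis were called higher with the block, Acaa1a only narrowly, and the acetoacetyl-CoA thiolase was not called. Acaa2 (ENSMUSG00000036880, on chromosome 18), the mitochondrial thiolase, was at 146, 119, 102 and 107 CPM in Foxp3UP against 118, 78.1, 92.0 and 91.1 in MockUP. Foxp3DN read 86.9, 103, 70.9 and 81.9 and MockDN 94.1, 117, 77.3 and 89.9. MockUP 2 was the lowest of that arm and MockUP 1 lay within the Foxp3UP range. The log2 fold change was 0.32 ± 0.15 (edgeR adjusted p = 0.190) and 0.33 ± 0.07 with the block (adjusted p = 0.00681). Acaa1a, a peroxisomal thiolase, was at 120.4, 105, 108 and 106 CPM in Foxp3UP against 102, 84.1, 94.7 and 102 in MockUP. The groups did not overlap. The difference was small, at 0.20 ± 0.08 (edgeR adjusted p = 0.139), and 0.20 ± 0.07 with the block (adjusted p = 0.0448), a call kept in 1 of the 8 fits that left out a library, that without Foxp3UP 4. Reads of Acaa1a may be split with its close paralog Acaa1b, which had 55 counts over all libraries. Acat1, which splits acetoacetyl-CoA at the end of the chain and also serves ketone and isoleucine metabolism, was at -0.02 ± 0.16 (edgeR adjusted p = 0.954). Its pair differences, 0.10, 0.35, -0.25 and -0.34, had opposite signs in pairs 1 and 2 and in pairs 3 and 4.

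The auxiliary enzymes, which prepare unsaturated chains for the cycle, were split as well. Eci2, an enoyl-CoA isomerase found in mitochondria and peroxisomes (ENSMUSG00000021417, chr13:34977748-35027096, minus strand), was at 57.0, 42.6, 39.6 and 38.9 CPM in Foxp3UP against 42.0, 25.6, 30.3 and 29.2 in MockUP. The DN arm had 30.9, 31.7, 25.3 and 28.6 (Foxp3DN) and 29.0, 36.8, 24.8 and 29.0 (MockDN). Again MockUP 1 overlapped Foxp3UP and the other 3 MockUP libraries did not. Eci2 was 1.40-fold higher, with a log2 fold change of 0.49 ± 0.16 (edgeR adjusted p = 0.0602) and 0.49 ± 0.09 with the block (adjusted p = 0.00137). DESeq2 gave 0.48 (adjusted p = 0.0443). Eci1, the mitochondrial isomerase and the member of this step with the highest RPKM (ENSMUSG00000024132, chr17:24426641-24439348, plus strand), was at 33.4, 29.6, 39.3 and 36.7 CPM in Foxp3UP against 32.3, 20.9, 46.6 and 43.9 in MockUP. Values in the DN arm were 36.2, 35.4, 45.0 and 36.3 with Foxp3DN and 35.4, 35.7, 43.4 and 41.3 with MockDN. MockUP held both the lowest and the highest libraries of all 16. The log2 fold change was -0.05 ± 0.19 (edgeR adjusted p = 0.904). Decr1, the 2,4-dienoyl-CoA reductase, was at 0.18 ± 0.22 (edgeR adjusted p = 0.658), and positive in 3 of 4 pairs.

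In electron transfer Etfdh, the membrane enzyme that hands electrons from ETF to ubiquinone, was at 81.3, 90.0, 83.4 and 80.5 CPM in Foxp3UP against 79.1, 76.2, 67.8 and 70.6 in MockUP, without overlap. The difference was again small, at 0.19 ± 0.08 (edgeR adjusted p = 0.143), and 0.19 ± 0.06 with the block (adjusted p = 0.0479), a call kept only without Foxp3UP 1 or MockUP 1 among the fits that left out a library. Etfa (ENSMUSG00000032314, chr9:55454508-55512243, minus strand), the most abundant gene of this step per length, was at 141, 122, 101 and 113 CPM in Foxp3UP against 132, 79.2, 106 and 118 in MockUP. Foxp3DN read 99.3, 118, 98.8 and 100.5 and MockDN 108, 123, 104 and 110.1. MockUP 2 was the lowest of all 16 libraries, and the groups overlapped. The log2 fold change was 0.13 ± 0.13 (edgeR adjusted p = 0.592), and the sign turned without MockUP 2, where the value was close to 0 (adjusted p = 0.996). Etfb was at 0.31 ± 0.31, with few reads.

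Ppargc1b, which encodes the coactivator PGC-1 beta of mitochondrial and lipid genes (ENSMUSG00000033871, on chromosome 18), went the other way. It was at 4.14, 5.40, 4.81 and 6.18 CPM in Foxp3UP against 7.19, 15.5, 5.75 and 8.65 in MockUP. The DN arm had 7.09, 8.59, 11.9 and 8.53 (Foxp3DN) and 7.30, 7.12, 10.7 and 8.78 (MockDN). All 4 Foxp3UP libraries lay below their pairs and below every DN-arm library, and MockUP 2 was the highest of all. The groups overlapped because MockUP 3 lay below Foxp3UP 4. Ppargc1b fell by 0.85 ± 0.27 on the log2 scale (edgeR adjusted p = 0.0441), and by 0.81 ± 0.19 with the block (adjusted p = 0.00695). The call without the block ended when any 1 of 6 libraries was left out: Foxp3UP 1, 2, 3 or 4, MockUP 2 or MockUP 4. Without MockUP 2 the difference shrank to -0.49 (edgeR adjusted p = 0.145). It was -1.24 in replicates 1 and 2 alone (adjusted p = 0.150) and -0.41 in replicates 3 and 4 alone (adjusted p = 0.294). With the block it was called in all fits that left out 1 library of the UP arm.

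**Figure D3:**
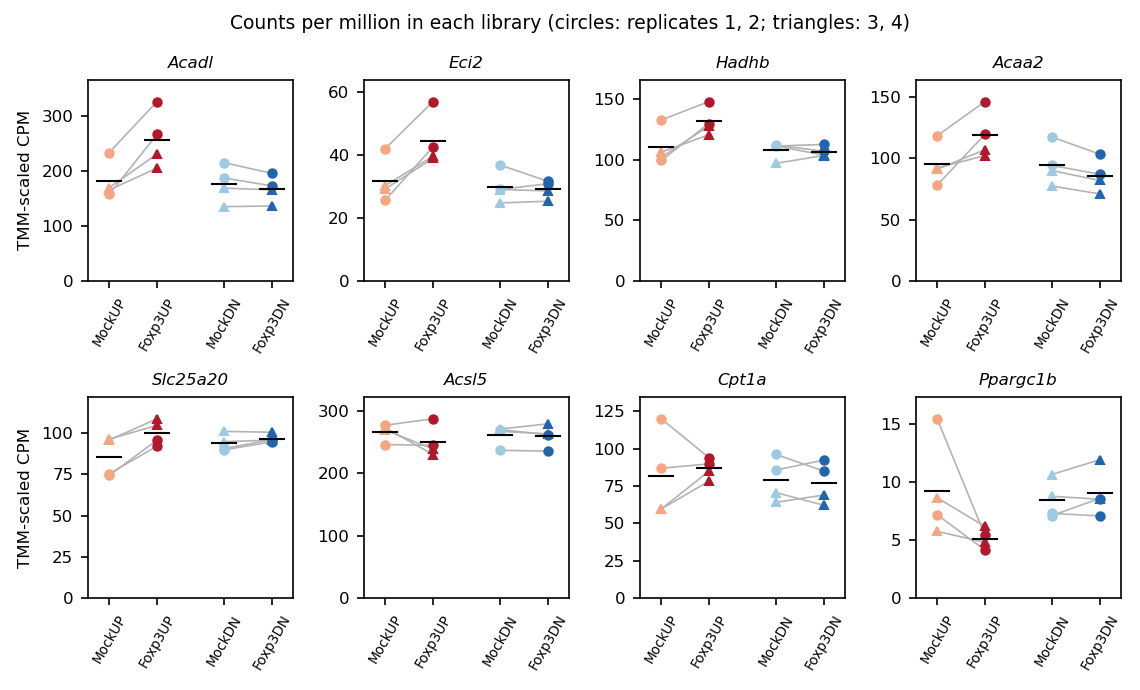
TMM-scaled CPM in each of the 16 libraries for 8 genes, with grey lines joining same-numbered libraries, black bars for group means, circles for replicates 1 and 2 and triangles for 3 and 4. For Acadl, Eci2, Hadhb, Acaa2 and Slc25a20 all 4 lines rise from MockUP to Foxp3UP, for Ppargc1b all 4 fall, and for Cpt1a 3 rise and that of replicate 2 falls.

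The sum of all 31 genes was 2250.3, 2018, 1894 and 1841 CPM in Foxp3UP against 1999, 1718, 1763 and 1796 in MockUP. The DN arm had means of 1773 ± 60.5 CPM (Foxp3DN) and 1816 ± 110.1 (MockDN), with the SD of 4 libraries. Foxp3UP 1 and MockUP 1 were each the highest of their group, and the lowest of Foxp3UP lay above MockUP 2, 3 and 4. The sums per step differed in the same sense for 6 of the 8 steps, the exceptions being activation and the regulators, whose means were lower in Foxp3UP.

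The sample numbers in the titles place replicates 1 and 2 of every group before replicates 3 and 4, and the genes did not behave alike in these sets. In replicates 3 and 4 alone, with 2 libraries a group, edgeR called 4 members higher (10.1% of all genes were), Cpt1a at 0.43, Acadl at 0.36, Ehhadh at 0.57 and Eci2 at 0.38. It called 3 lower (12.0% of all genes), Acsl5 at -0.23, Echs1 at -0.36 and Acat1 at -0.32. In replicates 1 and 2 alone it called 0 members, where 31 of 14006 genes were called (0.221%). The values of Echs1, Acat1, Eci1 and Etfa were positive there, at 0.25, 0.19, 0.24 and 0.31, and negative in replicates 3 and 4. These 4 were chosen after their values were seen, and the difference between the sets was not tested. MockUP 2, the library that stands apart, is in the first set. Without it Eci1 went from -0.05 to -0.24, Echs1 from -0.06 to -0.21 and Acat1 from -0.02 to -0.12. Decr1 went from 0.18 to 0.05, Acadm from 0.13 to 0.04, Etfb from 0.31 to 0.15, Acsl3 from 0.29 to 0.64 and Acads from 0.08 to 0.18. Hadha turned from -0.05 to 0.06 and Acadvl from 0.02 to -0.01. None of these 10 was called by edgeR without the block, with or without that library. The 9 genes called higher with the block had a positive log2 fold change in all 17 alternative settings tried. So did Acadsb, Decr1 and Etfb, which were called in none of them. The settings reuse the libraries from which the 9 were called, so this adds no separate evidence.

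In the DN arm no oxidation gene differed detectably. Foxp3DN against MockDN gave 0 of 27 calls, with or without the block, where edgeR called 1 of all genes (0.00729%) in each fit and DESeq2 called 0 members and also 1 gene. Before adjustment 0 of the 27 had p under 0.05 in either fit, where 1.04% of all genes did without the block and 4.00% with it. The log2 fold changes ran from -0.27 for Decr1 to 0.10 for Ppargc1b, 6 were positive, and the median was -0.04. These depended on single libraries. Without MockDN 2, 14 were positive with a median of 0.002, and without MockDN 4, 5 with a median of -0.08. The ranges overlapped for all 27 genes, while 1.15% of all genes had ranges that did not. Within pairs 0 genes were higher in 4 of 4 (8.12% of all genes were). The 5 that were lower in 4 of 4 (8.50% of all genes) were Echs1, Acaa2, Acat1, Decr1 and Etfa, with log2 fold changes of -0.13, -0.14, -0.12, -0.27 and -0.09 (edgeR adjusted p = 1.00 each). Acadl was at -0.07 ± 0.17, Eci2 at -0.04 ± 0.16 and Cpt1a at -0.04 ± 0.20 in this arm.

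Whether the difference between the Foxp3 and Mock groups was itself different in the UP and DN arms was tested as an interaction. Without the block edgeR called 0 of 27 members (1.83% of all genes were called). Before adjustment 4 of the 27 had p under 0.05, where 15.6% of all genes did, and DESeq2 called 0, where it called 4.75% of all genes. With the block 3 members were called higher (6.53% of all genes) and 1 lower (6.16%). The difference between the arms was 0.57 ± 0.10 for Acadl (edgeR adjusted p = 0.00342), 0.53 ± 0.12 for Eci2 (adjusted p = 0.0151) and 0.47 ± 0.10 for Acaa2 (adjusted p = 0.0126) with the block. For Ppargc1b it was -0.91 ± 0.25 (adjusted p = 0.0335). These 4 calls fell to 1, Acadl, without Foxp3DN 2 or MockDN 2. The call of Ppargc1b also ended without Foxp3UP 1, MockUP 1 or any 1 library of the DN arm. Without Foxp3UP 2 or MockUP 2 the calls were 7, with Cpt1a, Hadhb and Hadh in addition. For the other 6 genes called higher in the UP arm with the block, the difference from the DN arm did not pass, with adjusted p from 0.0626 for Hadhb to 0.286 for Ehhadh.

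The control groups of the arms did not differ detectably in these genes. MockUP against MockDN gave 0 of 27 calls, with or without the block, and 1 call among all genes in each fit (0.00729%). Of the members 1, Ehhadh, had p under 0.05 before adjustment without the block, where 3.16% of all genes did, at 0.37 ± 0.14 (edgeR adjusted p = 0.999), and DESeq2 called 0 members and 0.0583% of all genes. Its libraries were at 10.9, 9.87, 7.37 and 8.87 CPM in MockUP and 7.94, 6.70, 7.38 and 6.68 in MockDN, with an overlap at the low end of MockUP. The ranges overlapped for all 27 members, where 1.85% of all genes had ranges that did not. The lowest value was that of Etfb, at -0.47 ± 0.30.

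Genes of the wider pathway, in 5 lists with no member in common with the 31, showed larger single differences. In peroxisomal oxidation 3 of 16 tested genes rose, 0 fell and 13 were not called, with a median log2 fold change of 0.33 (8 higher and 1 lower with the block). In other activation, carnitine and uptake genes 3 of 20 rose, 1 fell and 16 were not called, with a median of 0.32 (8 and 2 with the block). In lipolysis 1 of 9 rose, 0 fell and 8 were not called, with a median of 0.23 (3 and 0). In other acyl-CoA oxidation and ketone body genes 1 of 20 rose, 0 fell and 19 were not called, with a median of 0.07 (2 and 0). Among further regulators 1 of 26 rose, 4 fell and 21 were not called, with a median of -0.07 (3 and 6). The shares of all genes called were 6.08% higher and 5.99% lower without the block and 13.3% and 12.0% with it, and the median of all genes was 0.00. In the DN arm and between the Mock groups, edgeR called 0 of these 91 genes, with or without the block, and DESeq2 also called 0. Before adjustment 0 of the 91 had p under 0.05 in either comparison without the block, and 3 and 1 with it, where 4.00% and 5.27% of all genes did.

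The gene of these lists with the smallest adjusted p was Plin2, the coat protein of lipid droplets that stores fatty acids destined for oxidation or export. It was at 152, 166, 112 and 116 CPM in Foxp3UP against 81.6, 65.2, 56.8 and 45.3 in MockUP. Values in the DN arm were 68.5, 64.0, 47.7 and 62.3 with Foxp3DN and 78.7, 81.4, 59.1 and 65.2 with MockDN. All 4 Foxp3UP libraries lay above the other 12, and Plin2 rose 2.19-fold (1.13 ± 0.18, edgeR adjusted p = 0.000753). Acsbg1, an acyl-CoA synthetase of very long chains, was at 107 ± 4.17 CPM against 74.1 ± 7.50 (0.53 ± 0.09, edgeR adjusted p = 0.000963). Pparg, the fatty acid-sensing nuclear receptor, was at 11.4, 11.3, 7.22 and 7.59 CPM in Foxp3UP against 5.07, 3.13, 3.33 and 2.92 in MockUP, and rose 2.59-fold (1.37 ± 0.29, edgeR adjusted p = 0.00509). For Plin2, Acsbg1 and Pparg the difference also exceeded that of the DN arm, by 1.36 ± 0.25 (edgeR adjusted p = 0.00954), 0.53 ± 0.12 (adjusted p = 0.0335) and 1.79 ± 0.42 (adjusted p = 0.0358). No other gene of the lists was called in that test by edgeR without the block, while 18 of the 91 were called with it, where 12.7% of all genes were.

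Phyh, the peroxisomal enzyme that starts alpha-oxidation of phytanic acid, was at 33.8 ± 2.91 CPM in Foxp3UP against 21.7 ± 4.20 in MockUP (0.64 ± 0.13, edgeR adjusted p = 0.00433). Auh, a hydratase of leucine breakdown that also binds RNA, was at 62.9 ± 4.28 against 45.2 ± 3.94 (0.48 ± 0.10, edgeR adjusted p = 0.00514). Pprc1, a further member of the PGC-1 family, also fell. It was at 26.4, 43.7, 38.6 and 39.5 CPM in Foxp3UP against 59.1, 136, 73.2 and 75.9 in MockUP, with a log2 fold change of -1.22 ± 0.22 (edgeR adjusted p = 0.00200). MockUP 2 was again the highest library, and the groups did not overlap.

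**Figure D4:**
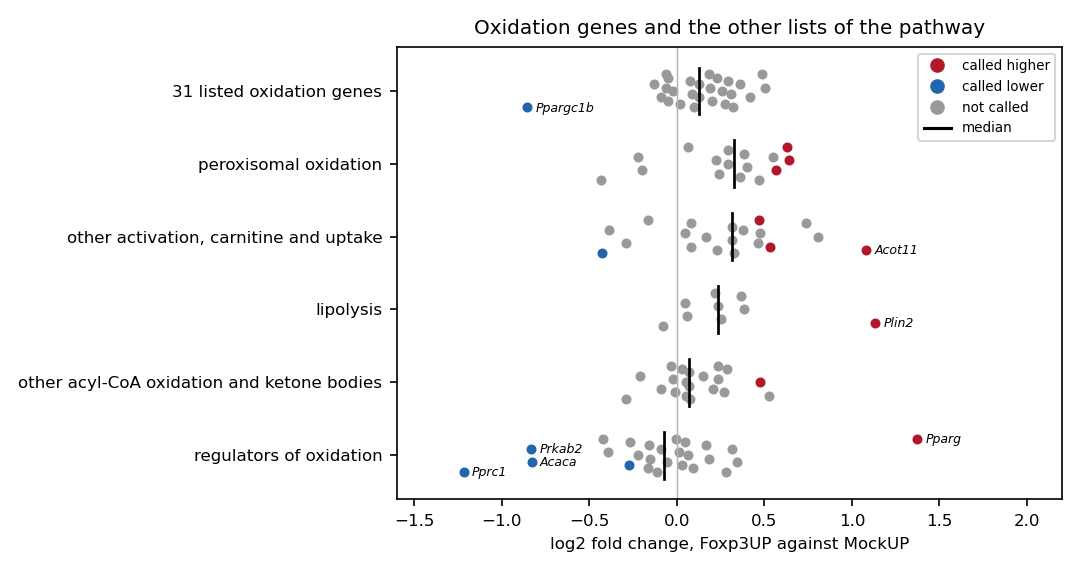
Log2 fold change of Foxp3UP against MockUP for each tested gene of the 31 and of the 5 other lists, coloured by the edgeR call without the block, with black bars for medians and names for called genes beyond 0.8 in size, a limit chosen after the values were seen. Plin2, Pparg and Acot11 lie on the right and Pprc1, Prkab2, Acaca and Ppargc1b on the left, while most of the 31 lie between -0.2 and 0.5.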

How the data were processed

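The file used holds unnormalized gene counts, deposited by the authors with a column for each library and, per the file headers, the coordinates and exonic length of each gene, the latter used here for RPKM. Per the submitters' processing notes the tools included STAR 2.6.1 and Subread 1.6.3, and the build was mm10. The labels do not say whether counting used strand, so reads of overlapping genes or close paralogs may be shared. No rows named no gene. Symbols came from GENCODE M21 (55394 of 55573 identifiers had one), promoters from RefSeq. The members and gene lists were chosen with earlier results of these data known.

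Counts were fitted with edgeR 4.0.16 in R 4.3.3 (filterByExpr at its minimum count of 10, TMM scaling, robust quasi-likelihood F test, 1 term per group, all 16 libraries). Calls are at a Benjamini-Hochberg adjusted p under 0.05 over 13711 genes, two-sided. An SE is the log2 fold change divided by the square root of F. Levels are TMM-scaled CPM or RPKM, and pair differences are of log2(CPM + 0.5). The fits were also run on simulated counts as a check of the code, with changes larger than those of the members called higher. No library repeated another.

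Replicate numbers come from the titles. For numbers 1 to 4, the deviations of paired libraries had correlations of 0.630, 0.213, 0.297 and 0.398 (UP arm), 0.364, 0.582, 0.545 and 0.298 (DN arm), and 0.185 to 0.326, with 0.107 for number 2, between MockUP and MockDN, all over 0.1. In the UP arm the highest correlations with another number were 0.0444, 0.173, 0.220 and 0.364, close below those of the pairs for numbers 2 to 4. Between MockUP and MockDN numbers 1, 2 and 4 had a higher correlation with another number (0.594, 0.124 and 0.298). A fit with the number as a block stands beside results that it changes. The block is within each arm, also for the difference between arms, and runs across arms only for MockUP against MockDN. Within an arm, a fit without a library and a fit without its pair are therefore not separate checks.

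All 31 members are named. Values in every library are given for Cpt1a, for the member with the highest RPKM in each step and for members called without the block. Other genes with library values were chosen after their values were seen. Of these, Eci2 and Plin2 are given in every library. Acaa1a, Etfdh, Pparg and Pprc1 are given in the libraries of the UP arm only, and Ehhadh in those of MockUP and MockDN only. Of other pathway genes, up to 6 called genes per comparison with the smallest adjusted p are named. Acot11, Prkab2 and Acaca, named on a plot, were chosen after their values were seen. The alternatives were library totals or RLE size factors in place of TMM, a filter of at least 1 CPM in 4 libraries or no filter, the replicate block, DESeq2 1.42.0, only the libraries compared, replicates 1 and 2 or 3 and 4 alone, and leaving out each library.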

Additional observations from a re-analysis of the deposited data

Results flagged for a closer look

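In 108 groups of 4 libraries (27 members in 4 groups), 9 had a highest or lowest library far from the other 3, where chance gives about 1 in 20. MockUP 2 was high for Acsl4, at 110.0 CPM with the nearest other at 82.4, and low for Acadm, at 25.6 with the nearest at 32.7. MockUP 1 was high for Acadl, at 234 CPM (nearest 170.2). In MockDN, replicate 1 was low for Acsl5, at 237 CPM (nearest 267), replicate 2 high for Acat1, at 94.7 (nearest 74.0), and replicate 3 low for Hadhb, at 96.9 (nearest 111). In Foxp3DN, replicate 3 was high for Eci1, at 45.0 CPM (nearest 36.3), and replicate 2 for Etfa, at 118 (nearest 100.5). Foxp3UP 1 was high for Echs1, at 46.6 CPM (nearest 39.7).

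With the replicate block, the difference between the Foxp3 and Mock groups was unlike in the UP and DN arms for 4 members. The difference was 0.57 for Acadl (edgeR adjusted p = 0.00342), 0.47 for Acaa2 (0.0126), 0.53 for Eci2 (0.0151) and -0.91 for Ppargc1b (0.0335).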

How the results depend on the processing

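For single members in the 4 comparisons, 0 values reversed, 9 lost and 28 gained a call, and in 1984 results the call did not change. A change of sign counted as reversed if either value was called or both exceeded their SE. Smaller changes of sign in values that were not called are among the 1984. For Hadha and Eci1 the sign changed in 8 of 24 settings each in the difference of effects. With the replicate block the calls in Foxp3UP against MockUP went from 1654 to 3475 genes and from 1 to 10 members, and those of the difference of effects from 251 to 1739 genes and from 0 to 4 members. The block changed no other call of a member. DESeq2 called 3 members in Foxp3UP against MockUP, 651 genes in the difference and 8 in MockUP against MockDN (1 in edgeR), where no filter gave 2. With only the 8 libraries compared, 658 genes and 0 members were called in Foxp3UP against MockUP. Replicates 1 and 2 alone gave 31 genes and 0 members there, 0 genes in Foxp3DN against MockDN and 2 in the difference. Replicates 3 and 4 alone gave 3025 genes and 7 members, 3 genes, and 1688 genes with 1 member (Cpt1a), and 35 genes in MockUP against MockDN. Acsl3 was not tested there.

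Leaving out 1 library gave 1064 to 1978 genes and 0 to 5 members in Foxp3UP against MockUP, the 5 without MockUP 1 (Acadl, Hadhb, Ehhadh, Eci2 and Ppargc1b). It gave 99 to 518 genes and 0 members in the difference, and 1 to 2 genes in MockUP against MockDN. With the block and a library left out, settings chosen after seeing the data, 6 to 9 members were called in Foxp3UP against MockUP and 1 to 7 in the difference. RLE size factors or library totals with the block gave 7, without Ehhadh, Acaa1a and Etfdh. Library totals in place of TMM turned the split of all calls from 833 higher and 821 lower to 646 and 1081, with a median shift of -0.04. Low counts limit Acsl3, Etfb and the 4 genes under the filter, and for Etfb and Cpt1b the exonic bases shared with other genes are a further limit.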
